A study of Mus musculus with 24 samples.

Results

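The GDNF family of neurotrophic factors and their receptors was described in dorsal root ganglia of 3 mouse strains. The members were the 9 genes with the symbols Gdnf, Nrtn, Artn, Pspn, Gfra1, Gfra2, Gfra3, Gfra4 and Ret, out of 38215 genes in the deposited table, and each had a single row with a value in all 24 libraries. RNA sequencing had been done on ganglia taken 5 days after crush of the sciatic nerve (injured) and on naive ganglia, with 4 libraries in each of 6 groups: injured and naive CAST, injured and naive DBA, and injured and naive C57. Strain, injury state and tissue are all that the sample labels give. They name no genetic alteration or drug for any group, and neither the age of the mice nor the number of ganglia in a library. The treatment protocol speaks of sham operation while the sample labels say naive, so what was done to the naive mice is not known from the labels. The series design calls the 4 libraries of a group biological replicates. CAST mice are a wild-derived inbred strain, and DBA and C57 are classical laboratory strains. The series title is concerned with axon regrowth in CAST/Ei mice, and the comparison of strains before and after crush addresses how their sensory ganglia differ.

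GDNF, neurturin (Nrtn), artemin (Artn) and persephin (Pspn) are secreted ligands. Each binds a preferred co-receptor held on the cell surface by a lipid anchor, GFRα1 for GDNF, GFRα2 for neurturin, GFRα3 for artemin and GFRα4 for persephin, and the pair then activates the receptor tyrosine kinase RET. In dorsal root ganglia, RET and GFRα2 are known from non-peptidergic nociceptors, which detect painful stimuli, and GFRα3 from peptidergic, heat-sensitive nociceptors. GDNF is also known as a factor that Schwann cells make after nerve injury.

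The libraries held between 51.39 and 145.48 M (mega) reads, estimated from the deposited values, with a median of 107.1 M. All 8 neuronal marker genes had at least 10 estimated reads in every library, and their summed level was 8244 to 10430 CPM (estimated reads per mega-read of the library) over the 24 libraries. There were 3 libraries that stood apart. Injured C57 replicate 3 had the lowest depth, naive C57 replicate 1 deviated most from the others of its group (SD of the log2 deviation over genes 0.224, against 0.127 to 0.199 in the other libraries), and naive DBA replicate 3 held 232 CPM of skeletal muscle markers, against 3.46 to 39.9 CPM elsewhere. Without these 3 libraries, the number of members called was the same in all 3 crush comparisons and in all 3 comparisons of the response between strains. It was 3 in place of 4 for naive CAST against C57 and for naive DBA against C57, and 5 in place of 6 for injured DBA against C57. In ganglia, which were sequenced whole, fewer cells of a type and less RNA per cell cannot be told apart.

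Levels of different genes were compared per kilobase of exon. On this scale, the receptor kinase Ret was at 74.5 to 90.8 CPM per kb in the 3 injured group means and 53.7 to 60.9 in the 3 naive ones. Gfra3 was at 43.5 to 110.4 CPM per kb in injured and 19.4 to 43.0 in naive ganglia, and Gfra2 at 16.3 to 30.7 in injured and 45.6 to 57.2 in naive ganglia. The order of group means changed with the group, with Gfra3 above Gfra2 in every injured group and below it in naive DBA and C57. In naive CAST ganglia the 2 were too close to order, at 43.0 ± 2.06 for Gfra3 and 45.6 ± 3.44 for Gfra2 (SD, n = 4). Gfra3 (110.4) was above Ret (90.8) in injured CAST ganglia. Gfra1 had 12.96 to 15.5 CPM per kb in injured and 4.21 to 5.47 in naive ganglia. Gfra4, the persephin co-receptor, was far lower, at 0.480 to 0.842 in injured and 0.944 to 1.41 in naive ganglia. Its estimated reads were not whole numbers (194.2 in injured C57 replicate 1), so its counted span may differ from the annotated one. The level of Gfra4 on this scale is therefore uncertain. Gdnf, Nrtn and Pspn had group means of 0.0525 to 1.01 CPM per kb. Artn had 0.0229 to 0.0702, which is too low because its counted span was 2.68 times the annotated one, so its place among the ligands is not given. On this scale the receptors other than Gfra4 stood above every ligand. The scale takes all reads as exon reads, and whether reads from introns were counted is not given. Such reads would raise genes with a small exon share of the span, as in Gfra1 (2.49%), against those with a large one, as in Pspn (84.34%).

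Crush moved the co-receptors in opposite directions. In all 3 strains Gfra1, Gfra3 and Ret rose, and Gfra2 and Gfra4 fell. Gdnf rose strongly in DBA and CAST ganglia and was not called in C57 ganglia. Counted over the family, 8 of 9 members were called in CAST, 8 in DBA and 6 in C57, where called means an adjusted p below 0.05 in limma's test on log2(CPM + 0.5). Of the 26140 genes tested, 49.1% were called in CAST, 52.2% in DBA and 40.8% in C57. In CAST, 5 members were higher and 3 lower in injured ganglia, beside 26.7% and 22.4% of all genes. In DBA, 5 were higher and 3 lower, beside 27.5% and 24.7%, and in C57 3 were higher and 3 lower, beside 19.5% and 21.3%. The libraries of injured and naive ganglia did not overlap for 7 members in CAST, 8 in DBA and 5 in C57, beside 47.0%, 50.3% and 32.7% of all genes. The median log2 fold change of the 9 members was 0.12 in CAST, 0.21 in DBA and 0.04 in C57, and that of all genes was 0.02, 0.01 and 0.00 (-0.00175 before rounding).

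**Figure D1:**
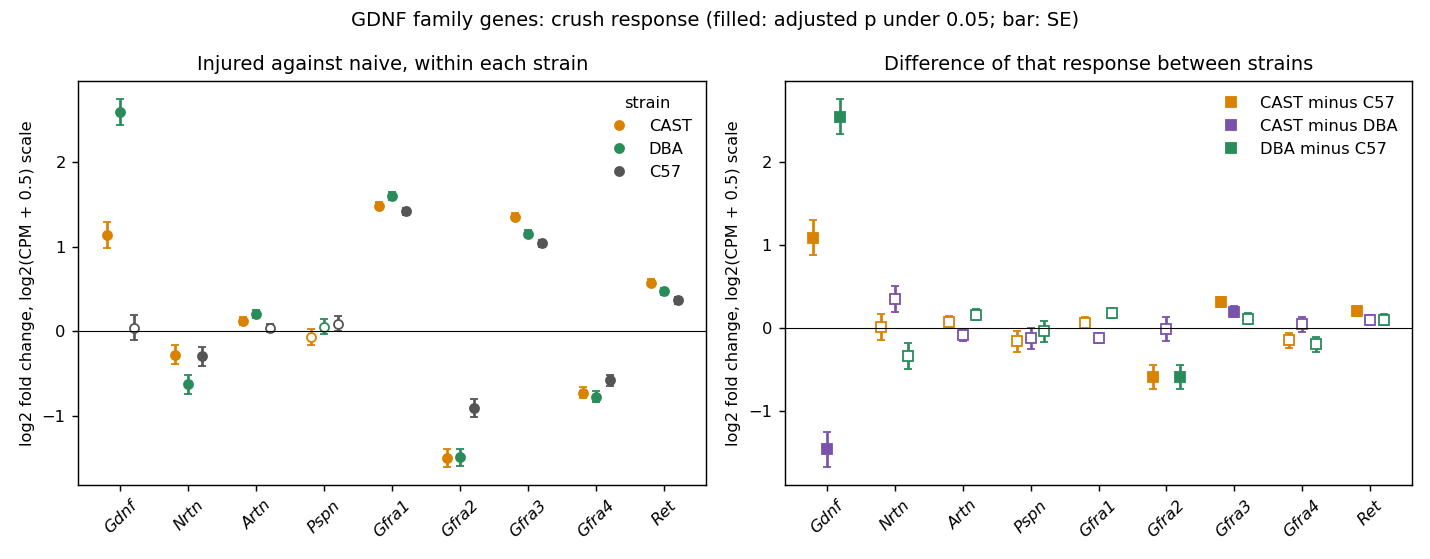
Left, log2 fold change of each GDNF family gene (injured against naive) in CAST, DBA and C57, on the log2(CPM + 0.5) scale. Right, the difference of that response between strains. Bars are standard errors and filled symbols have an adjusted p under 0.05. Gfra1, Gfra3 and Ret lie above 0 and Gfra2 and Gfra4 below 0 in all 3 strains, and the strains are farthest apart for Gdnf.

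Ret encodes the signalling kinase that all 4 ligands share (chr6:118151745-118197718, minus strand, mm10). Its deposited values, in fragments per kilobase of the whole gene span and per mega-read of the library (FPKM), were 13.3, 14.5, 13.1 and 12.5 in injured CAST ganglia and 8.75, 9.33, 8.93 and 8.85 in naive CAST ganglia. In DBA they were 11.2, 10.7, 10.6 and 11.3 FPKM in injured and 8.21, 8.09, 7.57 and 7.71 FPKM in naive ganglia. In C57 they were 11.5, 11.6, 11.2 and 11.9 FPKM in injured and 8.45, 8.89, 9.05 and 9.41 FPKM in naive ganglia. Every injured library lay above every naive library of its strain. The ratio of group means was 1.49 in CAST (log2 fold change 0.57, SE 0.04, adjusted p = 8.83e-11), 1.39 in DBA (0.47, SE 0.04, adjusted p = 2.33e-09) and 1.29 in C57 (0.37, SE 0.04, adjusted p = 2.75e-07). These were the smallest of the rises among the receptors in each strain.

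Gfra1 encodes the co-receptor that GDNF prefers (chr19:58235604-58455909, minus strand, mm10). Its span of 220306 bases is almost all intron, which gives it low FPKM values despite 4128 to 12090 estimated reads in each injured library and 1923 to 3372 in each naive one. It had 0.366, 0.393, 0.403 and 0.377 FPKM in injured CAST and 0.137, 0.134, 0.139 and 0.134 FPKM in naive CAST ganglia. In DBA it had 0.328, 0.302, 0.321 and 0.338 FPKM in injured and 0.106, 0.108, 0.102 and 0.103 FPKM in naive ganglia. In C57 it had 0.386, 0.335, 0.365 and 0.354 FPKM in injured and 0.127, 0.134, 0.136 and 0.135 FPKM in naive ganglia. The lowest injured library of any strain was above the highest naive library of all strains. The level in injured ganglia was 2.83 times that in naive ones in CAST (log2 fold change 1.48, SE 0.04, adjusted p = 2.15e-18), 3.08 times in DBA (1.60, SE 0.04, adjusted p = 5.64e-19) and 2.70 times in C57 (1.42, SE 0.04, adjusted p = 9.09e-18). An antisense gene, Gm16277, overlaps 444 bases of the span, 0.2% of it, and since the use of strand in counting is not given, reads from that stretch cannot be told apart.

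Gfra3 encodes the artemin co-receptor (chr18:34689898-34720387, minus strand, mm10), and its level, though not its response to crush, showed the widest strain differences among the receptors. Its values were 7.02, 7.15, 7.35 and 7.39 FPKM in injured CAST and 2.98, 2.86, 2.67 and 2.75 FPKM in naive CAST ganglia. In DBA they were 2.96, 2.81, 2.81 and 2.82 FPKM in injured and 1.27, 1.27, 1.24 and 1.30 FPKM in naive ganglia. In C57 they were 3.72, 3.57, 3.32 and 3.43 FPKM in injured and 1.71, 1.55, 1.77 and 1.77 FPKM in naive ganglia. Injured and naive libraries were far apart within each strain, and naive CAST libraries overlapped with injured DBA ones. Injury raised it 2.57-fold in CAST (log2 fold change 1.36, SE 0.04, adjusted p = 1.53e-17), 2.24-fold in DBA (1.16, SE 0.04, adjusted p = 2.80e-16) and 2.06-fold in C57 (1.04, SE 0.04, adjusted p = 3.20e-15).

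Gfra2 encodes the neurturin co-receptor (chr14:70890120-70979838, plus strand, mm10) and fell in all 3 strains. It had 0.736, 0.743, 0.489 and 0.600 FPKM in injured CAST and 1.70, 1.89, 1.67 and 1.94 FPKM in naive CAST ganglia. In DBA it had 0.666, 0.767, 0.722 and 0.653 FPKM in injured and 1.93, 2.05, 1.94 and 1.995 FPKM in naive ganglia. In C57 it had 0.970, 1.33, 1.196 and 1.34 FPKM in injured and 2.35, 2.23, 2.17 and 2.26 FPKM in naive ganglia. All injured libraries were below all naive libraries, and the injured C57 libraries were above those of injured CAST and DBA. The level in naive ganglia was 2.80 times that in injured ones in CAST (log2 fold change -1.50, SE 0.10, adjusted p = 1.87e-11), 2.82 times in DBA (-1.49, SE 0.10, adjusted p = 1.65e-11) and 1.86 times in C57 (-0.91, SE 0.10, adjusted p = 1.42e-07).

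Markers of several kinds of neuron fell beside Gfra2. Of 5 markers of non-peptidergic nociceptors (Mrgprd, P2rx3, Lpar3, Scn11a and Plxnc1), 4 fell in each strain, and 1 rose in CAST and 1 in C57. Their summed level was 417.9 to 596.1 CPM in injured and 1049 to 1138 CPM in naive CAST ganglia, 407.0 to 471.6 CPM in injured and 1049 to 1105 CPM in naive DBA ganglia, and 568.2 to 716.4 CPM in injured and 1009 to 1137 CPM in naive C57 ganglia. None was at 0, each having at least 10 estimated reads in every library. Of the 4 markers of peptidergic nociceptors, 4 fell in CAST, 4 in DBA and 3 in C57, while Gfra3 rose. Of 6 markers of large-diameter neurons, 5 fell and 1 rose in CAST, 4 fell and 1 rose in DBA, and 5 fell and 1 rose in C57. Of the 8 general neuronal markers, 4 fell and 2 rose in CAST, 5 fell and 2 rose in DBA, and 4 fell and 2 rose in C57. The part of such markers in the receptor changes was not tested.

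**Figure D2:**
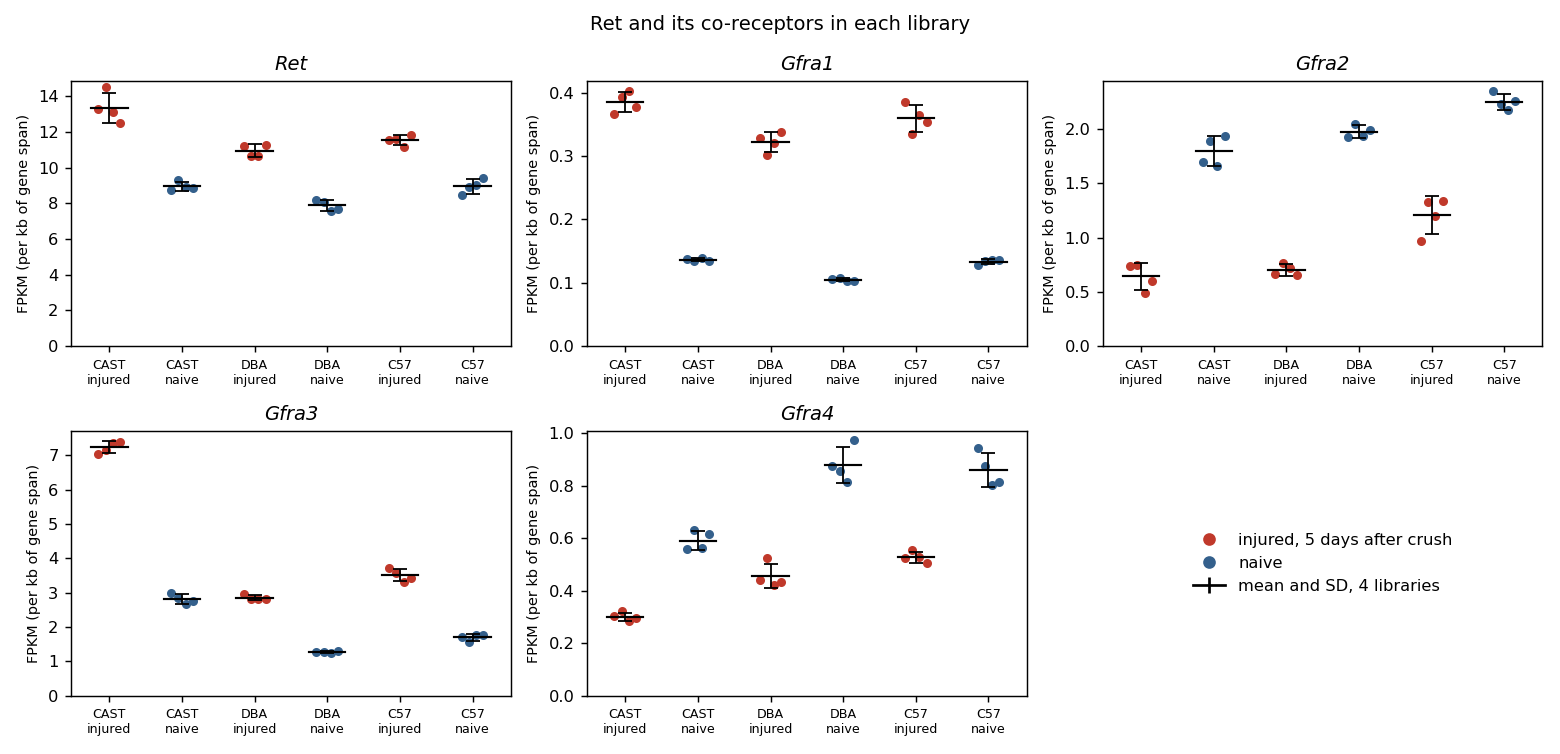
Deposited FPKM (per kb of gene span) of Ret and its co-receptors in each library, by strain, with injured ganglia (red) left of naive ganglia (blue). Lines and bars are means and SD of 4 libraries. Injured libraries lie above naive ones of the same strain for Ret, Gfra1 and Gfra3 and below them for Gfra2 and Gfra4.

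Gfra4, the persephin co-receptor (chr2:131039632-131043088, minus strand, mm10), was measured on fewer estimated reads, 93.8 to 238.7 in each injured and 195.3 to 383.8 in each naive library. It had 0.302, 0.321, 0.284 and 0.296 FPKM in injured CAST and 0.558, 0.630, 0.563 and 0.615 FPKM in naive CAST ganglia. In DBA it had 0.442, 0.526, 0.422 and 0.435 FPKM in injured and 0.874, 0.856, 0.816 and 0.975 FPKM in naive ganglia. In C57 it had 0.524, 0.554, 0.528 and 0.505 FPKM in injured and 0.945, 0.877, 0.803 and 0.815 FPKM in naive ganglia. No injured library reached the naive libraries of its strain. The naive level was 1.97 times the injured one in CAST (log2 fold change -0.72, SE 0.06, adjusted p = 1.03e-09), 1.93 times in DBA (-0.77, SE 0.06, adjusted p = 2.90e-10) and 1.63 times in C57 (-0.58, SE 0.06, adjusted p = 7.45e-08). A miRNA gene, Mir6973b, lies inside it on the same strand and shares 80 exon bases with it (2.3% of the span), and reads from that stretch cannot be told apart.

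Because Gfra1 and Gfra3 rose while Gfra2 fell, their ratios within a library changed more than any of the 3 genes alone. These ratios are of CPM and not corrected for length, so their change can be read but not which gene of the pair was higher. The log2 ratio of Gfra1 to Gfra2 was 0.58 ± 0.33 in injured and -2.43 ± 0.13 in naive CAST ganglia, 0.17 ± 0.17 in injured and -2.94 ± 0.04 in naive DBA ganglia, and -0.44 ± 0.30 in injured and -2.79 ± 0.09 in naive C57 ganglia (SD, n = 4 each). The log2 ratio of Gfra3 to Gfra2 was 1.96 ± 0.32 in injured and -0.91 ± 0.13 in naive CAST ganglia, 0.47 ± 0.13 in injured and -2.20 ± 0.04 in naive DBA ganglia, and -0.01 ± 0.26 in injured and -1.97 ± 0.10 in naive C57 ganglia. No injured library overlapped a naive one of its strain for either ratio. The shifts were 3.0, 3.12 and 2.34 for Gfra1 to Gfra2 in CAST, DBA and C57, and 2.87, 2.66 and 1.96 for Gfra3 to Gfra2. In each of these 6 comparisons an exact permutation test over libraries, two-sided, gave p = 0.0286, which is the smallest p that 4 against 4 libraries allow and which was also the value after Benjamini-Hochberg adjustment over the 6. Since the libraries of each of the 3 genes were already separate within a strain, this test could give no other value and adds no evidence to that of the single genes.

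**Figure D3:**
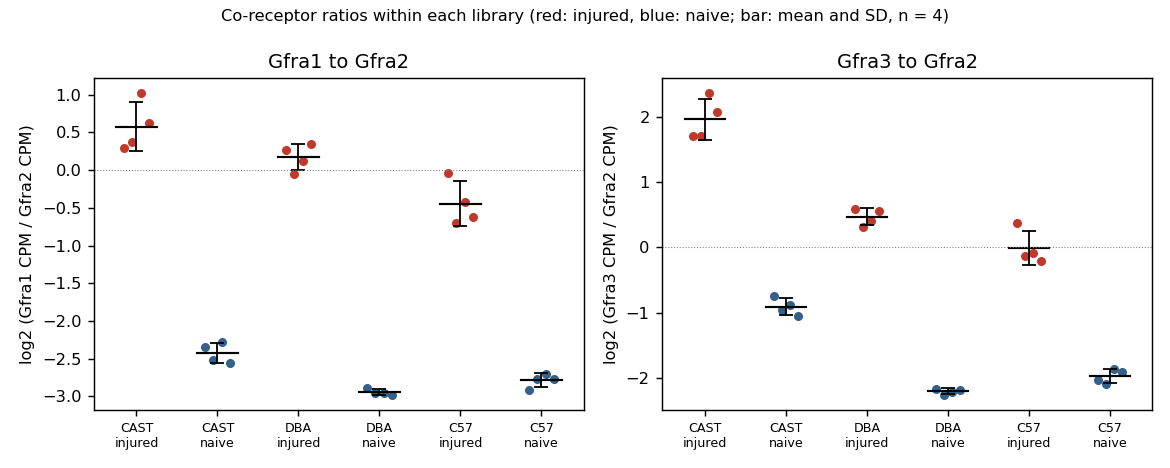
Log2 ratio of Gfra1 to Gfra2 (left) and of Gfra3 to Gfra2 (right) in each library, from estimated CPM, with injured ganglia (red) left of naive ganglia (blue) in each strain. Lines and bars are means and SD of 4 libraries, and the dotted line marks equal CPM, which is not equal level per length. Every injured library lies above every naive library of its strain.

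Gdnf (chr15:7810846-7837575, plus strand, mm10) was the ligand with the largest change. Its deposited values correspond to whole reads, 131, 152, 236 and 388 in injured CAST libraries and 60, 43, 47 and 62 in naive CAST ones. There were 410, 460, 387 and 334 reads in injured DBA libraries and 22, 20, 16 and 16 in naive DBA ones. In C57 there were 41, 30, 19 and 36 reads in injured and 31, 24, 40 and 26 in naive libraries. Injured and naive libraries did not overlap in CAST or DBA, and overlapped throughout in C57. After scaling for depth, mean values were 0.0669 ± 0.0271 FPKM in injured and 0.0189 ± 0.0038 FPKM in naive CAST ganglia, 0.139 ± 0.0216 FPKM in injured and 0.00722 ± 0.00169 FPKM in naive DBA ganglia, and 0.0124 ± 0.00241 FPKM in injured and 0.0115 ± 0.00295 FPKM in naive C57 ganglia (SD, n = 4 each).

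These means give a ratio of 3.53 in CAST, 19.2 in DBA and 1.08 in C57. The pseudocount of 0.5 CPM, about 50 reads at the median depth, compresses such low levels, and on that scale the log2 fold change was 1.14 in CAST (SE 0.15, adjusted p = 6.31e-07), 2.59 in DBA (SE 0.15, adjusted p = 3.61e-13) and 0.04 in C57 (SE 0.15, adjusted p = 0.849). With a pseudocount of 0.1 CPM the values were 1.58, 3.70 and 0.09 (adjusted p = 7.42e-07, 2.64e-13 and 0.770). The difference between strains was itself tested, and it was called for every pair. The response in CAST was larger than in C57 by 1.09 (SE 0.21, adjusted p = 0.00075), smaller than in DBA by a log2 difference of -1.46 (SE 0.21, adjusted p = 2.08e-05), and the response in DBA was larger than in C57 by 2.55 (SE 0.21, adjusted p = 1.73e-08).

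Gdnf was taken as the member whose response differed most between strains. It had 2 start sites in RefSeq (GRCm38.p6), and the upstream window of the more distal one is printed, which held a match while the other did not. This window lies wholly before the gene span given above for Gdnf. The window of Gfra1 is printed as that of the co-receptor with the largest rise, and a window of Gfra4 as the other one that held a match. Each is the 250 bases before a start site, read 5′ to 3′ on the strand of the gene, at chr15:7809798-7810047 (plus strand) for Gdnf, chr19:58455399-58455648 (minus strand) for Gfra1 and chr2:131042683-131042932 (minus strand) for Gfra4. The windows of Gfra1 and Gfra4 lie inside the gene spans given above, and that of Gfra4 belongs to its start site further into the gene. Capitals mark matches, on either strand, to 3 motifs: AP-1 (TGANTCA), ATF/CRE (TGACGT) and RUNX (TGTGGT).
Gdnf: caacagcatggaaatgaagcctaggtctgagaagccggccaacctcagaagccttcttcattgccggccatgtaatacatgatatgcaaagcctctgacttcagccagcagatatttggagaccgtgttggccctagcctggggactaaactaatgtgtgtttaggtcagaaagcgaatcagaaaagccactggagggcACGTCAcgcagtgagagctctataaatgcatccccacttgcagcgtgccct
Gfra1: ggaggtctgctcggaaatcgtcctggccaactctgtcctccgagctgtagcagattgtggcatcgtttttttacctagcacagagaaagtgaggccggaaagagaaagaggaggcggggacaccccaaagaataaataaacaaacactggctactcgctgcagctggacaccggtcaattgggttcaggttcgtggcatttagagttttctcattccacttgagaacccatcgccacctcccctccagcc
Gfra4: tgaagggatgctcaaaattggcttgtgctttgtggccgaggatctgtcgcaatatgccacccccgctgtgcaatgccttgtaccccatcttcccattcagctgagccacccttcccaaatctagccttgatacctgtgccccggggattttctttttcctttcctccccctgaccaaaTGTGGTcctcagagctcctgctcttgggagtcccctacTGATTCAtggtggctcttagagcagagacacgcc
The Gdnf window held an ATF/CRE match on the reverse strand, printed here as its complement, whose left end lies at position -51 from the start site. The Gfra4 window held an AP-1 match at -34 and a RUNX match at -72, and the Gfra1 window held none of the 3. Of 32851 mouse promoter windows of the same length, 6.75% held the AP-1 letters, 6.47% the ATF/CRE letters and 14.0% the RUNX letters. There were 8 windows for 6 members, and the windows of Nrtn, Artn, Pspn, the other start of Gdnf and the other start of Gfra4 held no match. Gfra2, Gfra3 and Ret were not searched.

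Artemin (Artn, chr4:117926162-117929763, minus strand, mm10) is the ligand of GFRα3. Its values correspond to 56, 68, 49 and 49 reads in injured and 34, 31, 29 and 34 in naive CAST libraries. In DBA there were 43, 50, 38 and 31 reads in injured and 14, 23, 10 and 11 in naive libraries, and in C57 22, 20, 17 and 20 reads in injured and 12, 19, 16 and 22 in naive libraries. Scaled for depth, the groups did not overlap in CAST or DBA and overlapped in C57. The ratio of mean FPKM was 1.49 in CAST (adjusted p = 0.0305), 2.54 in DBA (adjusted p = 0.000659) and 1.27 in C57 (adjusted p = 0.504). The DBA call held under every alternative tried. The CAST call was lost when injured replicate 1 or 2 or naive replicate 2 or 3 was left out (adjusted p = 0.0608 to 0.105), with voom weights or in a fit of the CAST groups alone (adjusted p = 0.059 to 0.0687). No difference of the Artn response between strains was called (adjusted p = 0.144 to 0.519). The reads imply that the counted span of Artn was 9644 bases rather than 3602, so its estimated CPM and its log2 fold change are understated, and the ratio of FPKM is not affected.

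Neurturin (Nrtn, chr17:56751325-56757530, minus strand, mm10) was called lower in injured ganglia of all 3 strains, with the largest change in DBA. It had 42, 72, 50 and 50 reads in injured and 79, 95, 111 and 118 in naive DBA libraries. In CAST there were 62, 71, 50 and 49 reads in injured and 45, 86, 74 and 86 in naive libraries, and in C57 37, 65, 22 and 49 reads in injured and 50, 59, 80 and 69 in naive libraries. Scaled for depth, the groups were separate in DBA and overlapped in CAST and C57. The naive level was 2.10 times the injured one in DBA (adjusted p = 4.04e-05), 1.45 times in CAST (adjusted p = 0.0415) and 1.49 times in C57 (adjusted p = 0.0375). The CAST call ended without injured replicate 3 or 4 or naive replicate 2, 3 or 4 (adjusted p = 0.0868 to 0.155), and the C57 call without injured replicate 1, 3 or 4 or naive replicate 2, 3 or 4 (adjusted p = 0.0518 to 0.139). Both also ended with no read minimum and on the log2(FPKM + 1) scale, the C57 call also with voom weights, and the CAST call also in a fit of the CAST groups alone (adjusted p = 0.0523 to 0.0672 in C57 and 0.0566 to 0.0799 in CAST). The differences between strains were not called (adjusted p = 0.159 to 0.971).

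Persephin (Pspn, chr17:56999457-57000018, minus strand, mm10), the ligand of GFRα4, had 14 to 44 reads in a library and was not called in any of the 12 comparisons. The ratio of injured to naive mean FPKM was 0.856 in CAST, 1.12 in DBA and 1.2 in C57, and the libraries overlapped in each strain (adjusted p = 0.588, 0.659 and 0.466).

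**Figure D4:**
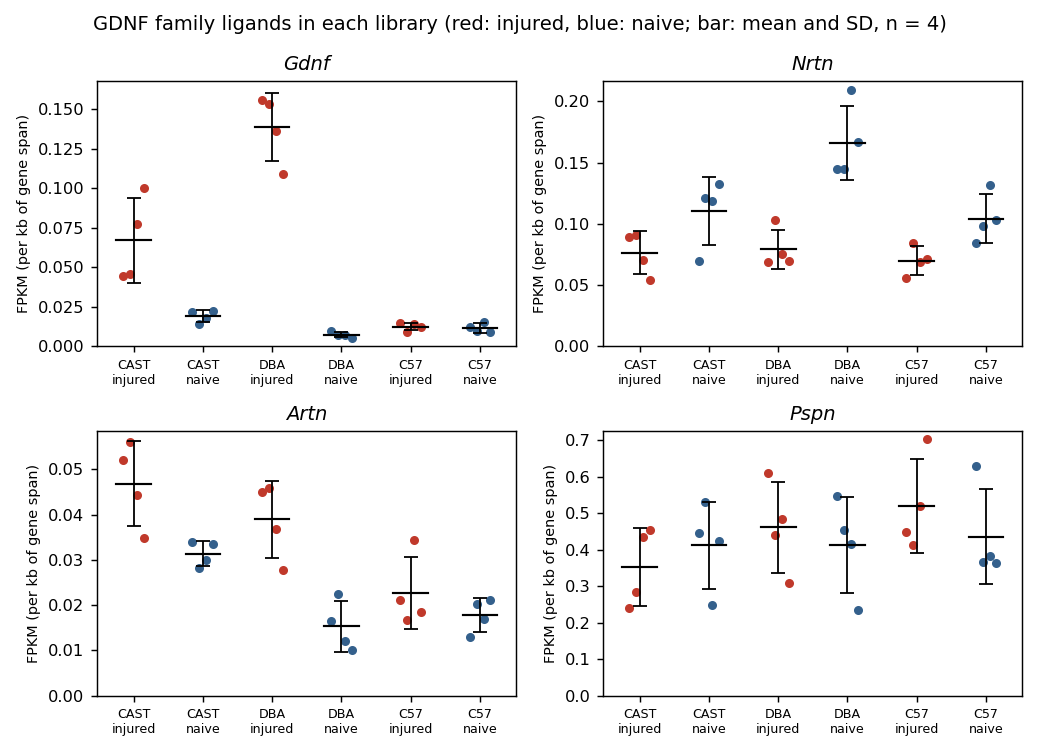
Deposited FPKM (per kb of gene span) of the 4 ligands in each library, with injured ganglia (red) left of naive ganglia (blue) in each strain. Lines and bars are means and SD of 4 libraries. Gdnf is highest in injured DBA and then injured CAST ganglia, and both are above all naive and all C57 libraries, while Pspn overlaps in every comparison.

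Markers of cells that could supply these ligands were read beside them. Of 7 markers of repair Schwann cells (Ngfr, Gfap, Shh, Olig1, Sox2, Btc and Bdnf), 2 rose and 2 fell in CAST, 5 rose and none fell in DBA, and 1 rose and 2 fell in C57. In CAST against C57, the response was higher for 2 of the 7 and lower for 1 (7.32% and 5.02% of all genes). In CAST against DBA, it was higher for none and lower for 4 (7.75% and 6.72%). In DBA against C57, it was higher for 4 and lower for none (4.89% and 4.34%). Gfap, an intermediate filament of glia, averaged 1.69 FPKM in injured and 0.126 FPKM in naive CAST ganglia, 2.39 FPKM in injured and 0.159 FPKM in naive DBA ganglia, and 0.181 FPKM in injured and 0.0486 FPKM in naive C57 ganglia. Gfap rose in all 3 strains, by a log2 fold change of 3.42 in CAST, 3.63 in DBA and 1.36 in C57 (adjusted p = 4.01e-15, 1.14e-15 and 6.46e-08). The summed level of the 7 was 515.5 to 556.7 CPM in injured and 539.2 to 631.8 CPM in naive CAST ganglia, 566.0 to 635.8 CPM in injured and 572.8 to 658.0 CPM in naive DBA ganglia, and 541.6 to 663.4 CPM in injured and 667.8 to 732.3 CPM in naive C57 ganglia. Genes with more reads weigh more in this sum, so it does not read the 7 evenly. Ngfr, with the highest mean FPKM of the 7, was called lower in CAST and C57 and not called in DBA (adjusted p = 0.0363, 0.00881 and 0.0876). All 6 fibroblast markers rose in every strain, to 685.9 to 750.4 CPM in injured CAST ganglia against 304.2 to 411.0 CPM in naive ones, 845.4 to 970.5 CPM in injured DBA against 340.2 to 535.6 CPM in naive ones, and 457.5 to 589.2 CPM in injured C57 against 269.6 to 459.9 CPM in naive ones. All 7 macrophage markers that had a value rose too, to 269.6 to 306.2 CPM in injured CAST against 107.3 to 115.7 CPM in naive ones, 237.7 to 259.0 CPM in injured DBA against 115.7 to 121.9 CPM in naive ones, and 211.7 to 239.8 CPM in injured C57 against 117.9 to 122.4 CPM in naive ones. Of 5 endothelial markers, 4 rose in CAST, 3 in DBA and none in C57. Of the macrophage markers, 6 responded more in CAST than C57, 4 more in CAST than DBA and 1 more in DBA than C57. Among fibroblast markers these counts were 1, 0 and 2, and among endothelial ones 1, 0 and 1. None of them responded less. Of 6 satellite glia markers, 2 had a lower response in CAST than C57 and 2 in CAST than DBA. Between DBA and C57, 1 was higher in DBA and 1 lower. After crush, none of these 6 rose and 2 fell in CAST, 2 rose and 1 fell in DBA, and 1 rose and 1 fell in C57. Of 8 general Schwann cell markers, 3 rose and 1 fell after crush in each strain. Only 1 of the 8 differed in response between strains, higher in DBA than C57. The part of these cells in the ligand changes was not tested.

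Strain differences in the response of the receptors were smaller than for Gdnf. Between CAST and C57, 4 members differed in response, with 12.3% of all genes called, and 3 had the higher log2 fold change in CAST (7.32% of all genes) and 1 the lower (5.02%). Between CAST and DBA 2 differed (14.5% of all genes), 1 higher in CAST (7.75%) and 1 lower (6.72%). Between DBA and C57 2 differed (9.23%), 1 higher in DBA (4.89%) and 1 lower (4.34%). These comparisons share groups and are not independent. Gfra2 fell further in CAST than in C57, by a log2 difference of -0.59 (SE 0.15, adjusted p = 0.00835), and further in DBA than in C57, by -0.58 (SE 0.15, adjusted p = 0.0121). On the log2(FPKM + 1) scale the CAST difference was not called (adjusted p = 0.0698). Of 5 non-peptidergic nociceptor markers, 3 had a lower response than C57 in CAST (5.02% of all genes) and 4 in DBA (4.34%). None was higher than C57, and between CAST and DBA 1 was higher in CAST and none lower. Of 6 large-diameter markers, 2 were lower than C57 in CAST and 2 in DBA, with 1 higher in DBA. For the 8 general neuronal markers these lower counts were 2 and 1, and for the 4 peptidergic ones 0 and 1, with none higher. The part of these markers was not tested.

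Gfra3 rose more in CAST than in C57, by a log2 difference of 0.32 (SE 0.06, adjusted p = 0.00113). Its difference between CAST and DBA was 0.20 (SE 0.06, adjusted p = 0.0349). That call ended under both other scalings between libraries (adjusted p = 0.0777 to 0.0972) and without any of 10 libraries (adjusted p = 0.0553 to 0.0823), which were injured CAST replicates 3 and 4, naive CAST replicates 3 and 4, injured DBA replicates 2, 3 and 4, and naive DBA replicates 1, 2 and 4. Ret rose more in CAST than in C57 by 0.21 (SE 0.06, adjusted p = 0.0287), a call lost under both other scalings, in a fit of those groups alone (adjusted p = 0.0592 to 0.0836) and without injured CAST replicate 2, naive CAST replicate 1 or 4, injured C57 replicate 3 or naive C57 replicate 4 (adjusted p = 0.0534 to 0.0671). The rise of Gfra1 was not called as different between strains (adjusted p = 0.0729 to 0.578), although its DBA to C57 difference was called without injured DBA replicate 2, injured C57 replicate 1 or naive C57 replicate 1 (adjusted p = 0.0327, 0.0266 and 0.0375). The fall of Gfra4 was not called as different either (adjusted p = 0.218 to 0.812).

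In naive ganglia, 4 of 9 members differed between CAST and C57, close to the 46.3% of all genes called, with 2 higher in CAST (25.2% of all genes) and 2 lower (21.1%). Between CAST and DBA 7 differed (46.5% of all genes), 5 higher in CAST (24.6%) and 2 lower (22.0%). Between DBA and C57 4 differed (23.0%), 1 higher in DBA (12.2%) and 3 lower (10.8%). Gfra3 showed the clearest order, CAST above C57 above DBA, with no overlap between neighbours. The naive CAST level of Gfra3 was 2.22 times that of DBA (adjusted p = 5.02e-16) and 1.66 times that of C57 (adjusted p = 2.39e-12), and the naive C57 level was 1.34 times that of DBA (adjusted p = 1.14e-07). Gfra4 was lower in naive CAST, with DBA at 1.49 times (adjusted p = 1.19e-06) and C57 at 1.45 times (adjusted p = 2.91e-06) its level. Ret and Gfra1 were lowest in naive DBA ganglia, where CAST had 1.14 and 1.30 times and C57 1.13 and 1.27 times the DBA level (adjusted p = 0.00139, 2.18e-07, 0.00355 and 2.11e-06), and naive CAST and C57 overlapped for both. Gfra2 in naive C57 was 1.25 times that in naive CAST ganglia (adjusted p = 0.0121).

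Among the ligands, Nrtn was highest in naive DBA, where it was 1.60 times the C57 level (adjusted p = 0.00716), and the level in naive CAST was lower than in naive DBA by a log2 difference of -0.38 (adjusted p = 0.00744). The DBA to C57 difference was lost without the 3 libraries that stood apart (adjusted p = 0.105). Artn in naive CAST was 2.05 times that in naive DBA (adjusted p = 0.0139) and 1.76 times that in naive C57 ganglia (adjusted p = 0.0389). The C57 comparison of Artn ended without naive CAST replicate 1, 3 or 4 or naive C57 replicate 1 or 3 (adjusted p = 0.0562 to 0.102), with a pseudocount of 2 CPM and without the 3 libraries that stood apart (adjusted p = 0.0504 to 0.0851). Gdnf in naive CAST was 2.62 times that in naive DBA (adjusted p = 0.00459), a call that ended with a pseudocount of 2 CPM and on both FPKM scales (adjusted p = 0.0725 to 0.323).

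In injured ganglia, 6 members differed between CAST and C57 (50.7% of all genes called), 4 higher in CAST (29.7%) and 2 lower (21.0%). Between CAST and DBA 5 differed (49.8%), 3 higher in CAST (27.4%) and 2 lower (22.4%), and between DBA and C57 6 differed (34.3%), 2 higher in DBA (18.9%) and 4 lower (15.4%). Injured CAST ganglia had 2.54 times the Gfra3 of injured DBA (adjusted p = 2.31e-17) and 2.06 times that of injured C57 ganglia (adjusted p = 2.29e-15). They had 1.22 times the Ret of DBA (adjusted p = 7.92e-06) and 1.16 times that of C57 (adjusted p = 0.000303). Gfra2 was lower in injured CAST and DBA than in injured C57 ganglia, which had 1.88 and 1.72 times their levels (adjusted p = 8.69e-08 and 2.43e-06). Gfra4 was lowest in injured CAST, with DBA at 1.52 times (adjusted p = 4.72e-06) and C57 at 1.75 times (adjusted p = 3.32e-08) its level, and the DBA to C57 difference of Gfra4 (log2 difference -0.16, adjusted p = 0.0495) ended without any of 7 of the 8 libraries (adjusted p = 0.0531 to 0.140), the exception being injured DBA replicate 2. That call also ended with a pseudocount of 2 CPM, on the log2(FPKM + 1) scale, with no read minimum, with voom weights, in a fit of those groups alone and without the 3 libraries that stood apart (adjusted p = 0.0541 to 0.104).

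Gfra1 in injured CAST was 1.2 times that in injured DBA ganglia (adjusted p = 3.42e-05), and injured DBA was lower than injured C57 by a log2 difference of -0.16 (adjusted p = 0.00717). Gdnf in injured DBA was 11.2 times that in injured C57 (adjusted p = 7.99e-12), and in injured CAST 5.41 times (adjusted p = 2.27e-08). Injured DBA also had 2.07 times the Gdnf of injured CAST ganglia (CAST minus DBA, log2 difference -0.92, adjusted p = 1.37e-05). Artn in injured CAST was 2.06 times that in injured C57 (adjusted p = 0.000883). In injured DBA it was 1.72 times that in injured C57 (adjusted p = 0.0239), which was not called without injured DBA replicate 1 or 2 or injured C57 replicate 2 or 4 (adjusted p = 0.0649 to 0.0771) or in a fit of those groups alone (adjusted p = 0.0872).

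The genes around RET were read as a list of 48: alternative receptors, adaptors, ubiquitin ligases, feedback inhibitors and transcription factors tied to its signalling. Of the 47 that could be tested, 17 rose and 16 fell in CAST, 17 rose and 14 fell in DBA, and 12 rose and 18 fell in C57. Over all genes, 26.7% were higher and 22.4% lower in CAST, 27.5% and 24.7% in DBA, and 19.5% and 21.3% in C57. The median log2 fold change of the list was 0.07 in CAST, 0.02 in DBA and -0.03 in C57. The 48th, Grb7, was below the read minimum. In all 3 strains, 11 rose and 11 fell, beside 14.3% and 14.6% of all genes. By the fixed rule, the largest rises were those of the adaptors Dok5, Grb10 and Pdlim7, of Lrig1, a membrane protein known to restrain RET, and of Sh3kbp1, which acts with Cbl in receptor uptake.

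Dok5 averaged 0.0494 ± 0.0037 FPKM in injured and 0.0153 ± 0.0018 FPKM in naive CAST ganglia, 0.0605 ± 0.0066 FPKM in injured and 0.0280 ± 0.00078 FPKM in naive DBA ganglia, and 0.0521 ± 0.0016 FPKM in injured and 0.0348 ± 0.0018 FPKM in naive C57 ganglia (SD, n = 4 each). The rise, 3.23-fold in CAST and 2.16-fold in DBA but 1.5-fold in C57, differed between every pair of strains (CAST minus C57, log2 difference 0.96, adjusted p = 1.58e-07). In CAST, Grb10 rose 1.85-fold and Lrig1 1.76-fold, in DBA they rose 2.07-fold and 2.02-fold, and in C57 1.97-fold and 1.71-fold.

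The largest falls were those of Sorl1, a sorting receptor that binds GDNF and GFRα1, of the transcription factor Etv1, of Spry4, an inhibitor of receptor tyrosine kinase signalling, and of the adaptors Dok4 and Shc1. Sorl1 averaged 1.02 ± 0.188 FPKM in injured and 2.22 ± 0.0277 FPKM in naive CAST ganglia, 0.448 ± 0.0361 FPKM in injured and 1.57 ± 0.0597 FPKM in naive DBA ganglia, and 1.01 ± 0.142 FPKM in injured and 2.07 ± 0.316 FPKM in naive C57 ganglia. It fell further in DBA than in C57, by a log2 difference of -0.78 (adjusted p = 0.003). Etv1 in naive ganglia was at 2.78, 2.29 and 2.43 times the injured level in CAST, DBA and C57, and Spry4 at 2.0, 1.92 and 2.01 times. Runx1, a transcription factor of non-peptidergic nociceptors that is needed for their Ret and is named here after its values were seen, also fell in all 3 strains, with naive levels 1.21, 1.79 and 1.34 times the injured ones in CAST, DBA and C57.

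Gfral, a distant relative of the GFRα genes that serves as the receptor of GDF15 and signals through RET, was singled out after its values were seen. On chr9:76164102-76213657 (minus strand, mm10) it had 307, 332, 340 and 455 reads in injured CAST libraries and 23, 24, 29 and 31 in naive CAST ones. In DBA it had 62, 63, 91 and 85 reads in injured and 29, 40, 26 and 31 in naive libraries, and in C57 19, 36, 2 and 19 reads in injured and 10, 8, 13 and 11 in naive libraries. The groups were separate in CAST and DBA and overlapped in C57. The ratio of mean FPKM was 11.3 in CAST (adjusted p = 1.31e-15), 2.16 in DBA (adjusted p = 2.11e-05) and 1.60 in C57 (adjusted p = 0.267), and the CAST response exceeded that of DBA by a log2 difference of 1.63 (adjusted p = 2.23e-09) and that of C57 by 2.03 (adjusted p = 6.02e-11). Its ligand gene Gdf15, named with it, was at 1.25 times the naive level in CAST (adjusted p = 0.197), 1.95 times in DBA (adjusted p = 0.000412) and 1.5 times in C57 (adjusted p = 0.173).

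**Figure D5:**
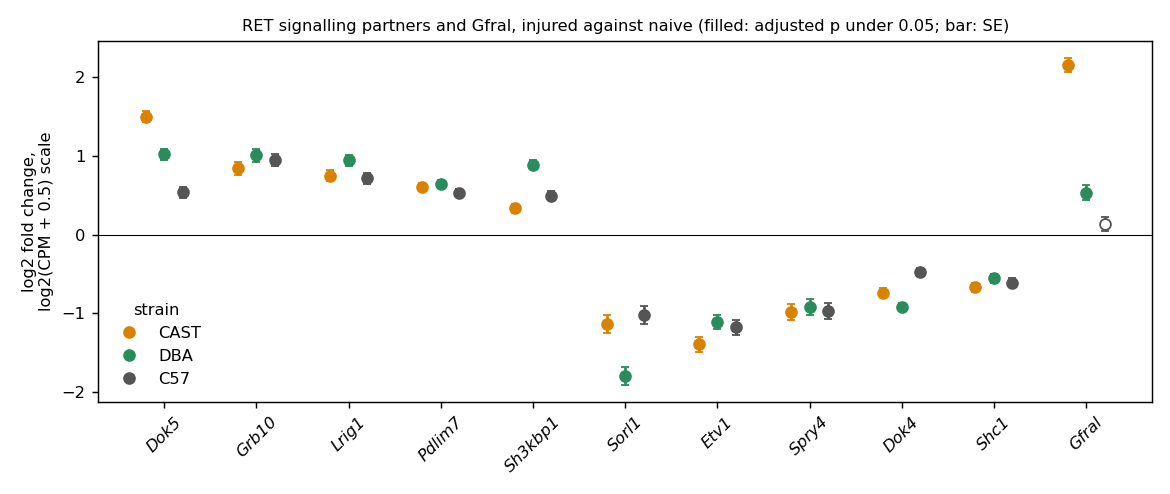
Log2 fold change (injured against naive, log2(CPM + 0.5) scale) of the 10 genes named by the rule from the list around RET, and of Gfral, in CAST, DBA and C57. Bars are standard errors and filled symbols have an adjusted p under 0.05. Dok5 and Gfral are farthest from 0 in CAST and Sorl1 in DBA.

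The genes most like each member across the 24 libraries were found among 13961 protein-coding genes, by Pearson's r of log2(CPM + 0.5). The libraries share strain and injury state, so r describes a shared order of groups. Gfra1 was most like Sdc1 (r = 0.994), a cell-surface heparan sulphate proteoglycan, Plekho2 (0.993) and a gene with the deposited symbol RBMY1B (0.99), which the annotation calls Gm3376. Gfra2 was most like Gm765 (0.993), Grik1 (0.991), a kainate receptor subunit, and Kcnip3 (0.99), a potassium channel-interacting protein. Gfra3 was nearest to Plscr3 (0.987), Rhog (0.983) and Oas1e (0.981), and Gfra4 to Synpr (0.985), Hpca (0.984) and P2rx6 (0.981). Ret was nearest to Nkain1 (0.978), Nlgn2 (0.973) and Coro1c (0.969), and Gdnf, with the lowest values, to Rgs16 (0.939), Impdh2 (0.937) and Cd93 (0.937). Nrtn, Artn and Pspn were below the minimum of 1 CPM for this search.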

How the data were processed

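Total RNA of dorsal root ganglia was extracted with Trizol and made into Illumina libraries, per the labels' protocols. STAR 2.3.0 aligned the reads, per the submitters' processing notes, to mm10, a build of the C57BL/6J genome, and any effect of this on the levels of the other strains was not tested. What counted the reads, and whether by strand, is not given in the sources used here. FPKM values of 38215 genes were deposited by the authors for each library.

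The kilobase term of the deposited FPKM is the full gene span, introns included. FPKM was multiplied by the span in GENCODE M21, found for 36345 genes (95.1%), to estimate CPM. Library totals came from the value of 1 read, and 67.9% of values worth 0.5 to 100 reads were whole within 0.05, against 10.0% by chance. No 2 libraries held the same values.

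A gene was tested if 4 or more libraries had at least 10 of its estimated reads (26140 genes, with 12075 removed, and all 9 members passed). In R 4.3.3, limma 3.58.1 (statmod 1.5.0) was fitted to log2(CPM + 0.5) of all 24 libraries as 6 group means, with a trended and robust variance prior. Two-sided p-values were Benjamini-Hochberg adjusted over all genes in each of 12 contrasts. Adjusted p-values are from limma, fold changes on that scale understate low genes, and ratios are of mean FPKM. The code was tested on simulated data. The alternatives were other pseudocounts, filters, scalings and scales, voom, fits of single contrasts, a replicate block and leaving out each library. Omission of 3 libraries was added after seeing the data. The members and lists were chosen with earlier results of these data known. Named from the list around RET were the 5 largest rises and 5 largest falls called in all 3 strains.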

Additional observations from a re-analysis of the deposited data

Results flagged for a closer look

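Chance alone flags about 1 group in 20 for a library that stands apart, and 54 groups were examined. In naive C57 ganglia, replicate 1 had 0.630 FPKM of Pspn, while the other libraries of the group had 0.364 to 0.382. In injured DBA ganglia, replicate 1 had 2.96 FPKM of Gfra3, while the others had 2.81 to 2.82.

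The response to crush differed between strains for 4 members, given as log2 differences. For Gdnf the difference was 1.09 for CAST minus C57, -1.46 for CAST minus DBA and 2.55 for DBA minus C57. For Gfra2 it was -0.59 for CAST minus C57 and -0.58 for DBA minus C57. For Gfra3 it was 0.32 for CAST minus C57 and 0.20 for CAST minus DBA. For Ret it was 0.21 for CAST minus C57.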

How the results depend on the processing

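Of 108 log2 fold changes (9 members in 12 comparisons), 62 were called. Of these, 51 were called under every one of the 36 alternatives that applied to them, 11 lost the call under at least 1, and none changed direction while called. The 11 are named with their values in the report. The calls of Gfra1, Gfra2, Gfra3, Gfra4 and Ret within each strain were among the 51. Of 2340 alternative values, 73 lost the call and 10 gained one. Besides the Gfra1 response, naive Gdnf in CAST against C57 was called with a pseudocount of 0.1 CPM and in a fit of those groups alone (adjusted p = 0.0250 and 0.0205). Such fits also called naive Gfra2 in CAST against DBA and DBA against C57 (0.0340 and 0.0127). Injured Gfra1 in CAST against C57 was called on the log2(FPKM + 1) scale and without injured C57 or injured CAST replicate 1 (0.036, 0.0185 and 0.0388). The number of members whose response differed between CAST and DBA was 1 in place of 2 with upper-quartile scaling and with median-of-ratios scaling, and 1 to 2 when a library was left out. Counts over all genes stayed within 1.285 times those given. With upper-quartile scaling, the genes whose response differed between CAST and C57 were 1604 higher and 1764 lower, against 1913 higher and 1313 lower.

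Replicate numbers showed no clear pairing of the libraries: same-numbered libraries of different groups correlated at 0.0189 on average (-0.279 to 0.3), and 8 of 24 correlated best with their own number. What the number stands for is not given, and this check cannot exclude a pairing. With the replicate number as a block, limma lost no member call. For the co-receptor ratios, the blocked exact sign-flip permutation test gave p = 0.125, the smallest that 4 pairs allow, at unchanged differences of 3.0, 3.12 and 2.34 (Gfra1 to Gfra2 in CAST, DBA and C57) and 2.87, 2.66 and 1.96 (Gfra3 to Gfra2). Depth limits the ligands and Gfra4, which rest on 10 to 460 reads for the ligands and 93.8 to 383.8 estimated reads for Gfra4.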

Other observations

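Other genes of the list around RET also differed between strains in their response, and those named here were chosen after their values were seen. Ncam1, an alternative receptor for GDNF, rose 1.65-fold in CAST (0.474 ± 0.0268 FPKM in injured and 0.288 ± 0.00706 FPKM in naive ganglia), 1.22-fold in DBA and 1.35-fold in C57 (SD, n = 4 each). The CAST response of Ncam1 was larger than that of DBA by a log2 difference of 0.43 (adjusted p = 0.00014) and than that of C57 by 0.28 (adjusted p = 0.00998). Lrig2, a relative of Lrig1, rose in CAST (1.08 times the naive level, adjusted p = 0.0429) and fell in DBA and C57, where the naive level was 1.38 and 1.19 times the injured one (adjusted p = 6.71e-09 and 0.000149). Its response in CAST exceeded that in DBA by 0.58 (adjusted p = 6.29e-07) and that in C57 by 0.36 (adjusted p = 0.000456). The Lrig2 rise in CAST was small (log2 fold change 0.115, SE 0.046). Upper-quartile and median-of-ratios scaling shift CAST responses by -0.0377 and -0.0345, and whether the call holds under them is not given.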
